A study of Mus musculus with 9 samples.

Results

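Plvap, Cbln2, Oit1, Pqlc1 and Ppfibp2 are 5 genes of the mouse whose transcripts were more abundant in spermatogonia with much surface TSPAN8. They were chosen by name, out of 23813 entries of the expression table, for a large rise in the TSPAN8-high fraction against the TSPAN8-low fraction or against all ID4-EGFP+ cells. The rule had no fixed threshold. The values of those comparisons therefore chose the genes, so no p is given for the 5 there, and a count of calls among them only describes the choice. All 5 were found on 1 entry each, and all 5 passed the filter on low values (at least 1 FPKM in at least 3 of the 9 libraries), which left 11142 genes.

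The cells came from testes of male pups at postnatal day 6 that carried the Id4-eGfp transgene of the line LT-11B6, on a C57BL/6 background. Every library was from cells sorted as EGFP-positive, so the 3 groups share the transgene, the age and the first gate. Of ID4-EGFP+ cells stained for TSPAN8, the 1/3 with the strongest stain formed TSPAN8-high (3 libraries) and the 1/3 with the weakest stain formed TSPAN8-low (3 libraries), while all ID4-EGFP+ (3 libraries) was not divided by TSPAN8. The labels number 3 replicates in each group and do not say which litters or how many pups went into each, so the spread between libraries may be in part technical.

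Id4 encodes an inhibitor of DNA binding that dimerises with E-proteins and marks the stem cell end of the undifferentiated spermatogonia. TSPAN8 is a tetraspanin, a protein with several membrane spans that gathers partner proteins in the plasma membrane. Surface proteins matter in these cells because they allow living cells to be sorted by antibody, and secreted proteins carry signals between cells of the tubule. The products of the 5 genes differ in where they act. PLVAP is a glycoprotein that crosses the membrane once and builds the diaphragms of caveolae and of the fenestrae of blood vessels. CBLN2 is a secreted protein of the C1q family that organises synapses. OIT1, also named FAM3D, is a small secreted protein of the FAM3 family, known from the gut. PQLC1, also named SLC66A2, is a PQ-loop protein that crosses the membrane several times. PPFIBP2 is liprin-beta-2, a scaffold protein inside the cell and not a surface or secreted protein, so the description of the group as surface and secreted genes does not hold for all 5.

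Per RefSeq the genes lie on mouse chromosomes 8 (Plvap), 18 (Cbln2 and Pqlc1), 14 (Oit1) and 7 (Ppfibp2). The promoter windows of Oit1 and Ppfibp2 are shown because these genes had the strongest positive and the strongest negative relation to Tspan8 inside the sorted groups, and that of Tspan8 is shown as the sorted gene. Each runs from 250 bases before to 50 bases after a transcript start, 5′ to 3′, from RefSeq on GRCm38.p6, which is not the build named for the deposited values. Ppfibp2 has 4 starts in that table, and the window of the lowest coordinate is printed; of the other 3, the second holds 3 E-boxes, the third holds 3 E-boxes, 1 ETS motif and 1 forkhead motif, and the last holds none of the motifs searched.
Oit1, chr14:8378714-8379013, minus strand: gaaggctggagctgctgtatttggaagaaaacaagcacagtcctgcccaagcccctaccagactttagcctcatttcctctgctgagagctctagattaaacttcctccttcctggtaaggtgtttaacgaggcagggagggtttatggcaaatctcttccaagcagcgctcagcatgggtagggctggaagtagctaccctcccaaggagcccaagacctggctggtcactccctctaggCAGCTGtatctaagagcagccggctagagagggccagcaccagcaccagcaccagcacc
Ppfibp2, chr7:107594801-107595100, plus strand: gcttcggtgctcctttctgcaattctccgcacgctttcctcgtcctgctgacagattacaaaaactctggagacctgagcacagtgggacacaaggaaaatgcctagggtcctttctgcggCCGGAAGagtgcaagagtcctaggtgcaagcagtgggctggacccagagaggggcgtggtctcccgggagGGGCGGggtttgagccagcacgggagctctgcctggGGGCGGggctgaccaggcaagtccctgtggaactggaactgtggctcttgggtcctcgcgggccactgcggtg
Tspan8, chr10:115817034-115817333, plus strand: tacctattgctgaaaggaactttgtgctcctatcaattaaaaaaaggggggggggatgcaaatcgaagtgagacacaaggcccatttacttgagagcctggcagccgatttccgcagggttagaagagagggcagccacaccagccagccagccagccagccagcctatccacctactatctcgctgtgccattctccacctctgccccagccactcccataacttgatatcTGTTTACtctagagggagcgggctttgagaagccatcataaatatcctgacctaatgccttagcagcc

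Capitals mark matches on either strand to 5 motifs, which were chosen with the sequences in view. The Oit1 window held 1 E-box (CANNTG), the site class of the E-proteins that ID4 binds, and 72.3% of the 32851 windows in the table hold one. The Ppfibp2 window held 1 ETS motif (CCGGAAG), found in 8.86% of all windows, and 2 GC boxes (GGGCGG), found in 35.7%. The Tspan8 window held 1 forkhead motif (TGTTTAC), found in 3.65%. The T-box motif AGGTGTGA, found in 1.28%, was in none of the 3. The 3 windows printed had no motif in common. Their GC content also differed, at 55.0% for Oit1, 62.0% for Ppfibp2 and 51.7% for Tspan8, against a median of 52.7% over all windows. Ppfibp2 had 14 CpG dinucleotides, Oit1 had 3 and Tspan8 had 5.

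Values are Cufflinks FPKM, fragments scaled by transcript length and by the mapped fragments of the library, which allow levels to be compared between genes. The files give no read counts, so absolute depth is unknown. The spacing of the lowest values gives relative depths of 0.847 (TSPAN8-low replicate 1, the shallowest) to 1.05 when all ID4-EGFP+ replicate 1 is set to 1. Log2 differences are from limma on log2(FPKM + 1), which understates the change of low genes. Over all 11142 genes, 619 passed at an adjusted p under 0.05 between TSPAN8-high and TSPAN8-low (5.56%), 380 of them higher (3.41%) and 239 lower. With the replicate number as a block 2131 passed, and the split was 1313 higher and 818 lower. The split turned to 223 higher and 307 lower with the authors' normalized values, 255 and 360 with a common median, and 250 and 300 after quantile normalization. All 12 spermatogonial marker genes were tested, and their summed level was 2882 to 3118 FPKM in TSPAN8-high, 2815 to 3250 FPKM in TSPAN8-low and 2801 to 3093 FPKM in all ID4-EGFP+. Most of that sum came from Dazl, Ddx4 and Uchl1, so it mainly describes these genes. Their means in TSPAN8-high and TSPAN8-low were 1491 and 1573 FPKM for Dazl, 591 and 404 FPKM for Ddx4, and 586 and 806 FPKM for Uchl1.

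Transcripts of the sorted protein set the scale for the 5 genes. Tspan8 stood at 43.7, 29.6 and 28.8 FPKM in TSPAN8-high replicates 1 to 3, at 6.65, 10.8 and 11.8 FPKM in TSPAN8-low, and at 14.5, 14.2 and 16.8 FPKM in all ID4-EGFP+. TSPAN8-high replicate 1 was the highest of the 9 libraries and TSPAN8-low replicate 1 the lowest, and no group overlapped another. One annotated transcript on the other strand, 4930422I22Rik, overlaps exons of Tspan8, and reads of the 2 strands were not separated.

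The surface protein gene Plvap was the member with the widest difference between the fractions on log2(FPKM + 1). With a pseudocount of 0.1 the difference of Oit1 was wider (2.66, against 2.18 for Plvap). It stood at 12.03, 15.4 and 16.0 FPKM in TSPAN8-high, at 1.76, 3.97 and 4.17 FPKM in TSPAN8-low, and at 4.13, 5.16 and 6.33 FPKM in all ID4-EGFP+. TSPAN8-high was apart from both other groups. TSPAN8-low and all ID4-EGFP+ overlapped, since TSPAN8-low replicate 3 was just above all ID4-EGFP+ replicate 1. The mean in TSPAN8-high was 14.5 ± 2.14 FPKM, against 3.30 ± 1.34 in TSPAN8-low and 5.20 ± 1.101 in all ID4-EGFP+ (SD, n = 3 each), which makes TSPAN8-high 4.39-fold TSPAN8-low and 2.78-fold all ID4-EGFP+. Without TSPAN8-low replicate 1 the first ratio was 3.56. The log2 difference of 1.89 (SE 0.24) between the fractions ranked 5 among all genes tested.

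The secreted protein genes Cbln2 and Oit1 were the members with the lowest levels. Cbln2 stood at 6.72, 6.07 and 5.71 FPKM in TSPAN8-high, at 1.22, 0.985 and 1.97 FPKM in TSPAN8-low, and at 3.49, 2.85 and 3.95 FPKM in all ID4-EGFP+. The 3 groups did not overlap, and all ID4-EGFP+ lay between the fractions within each replicate number. The mean was 6.17 ± 0.514 FPKM in TSPAN8-high, 1.39 ± 0.513 FPKM in TSPAN8-low and 3.43 ± 0.549 FPKM in all ID4-EGFP+, a ratio of 4.44 between the fractions. Its log2 difference was 1.60 (SE 0.17), rank 17.

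Oit1 had the largest ratio of means between the fractions, and its relative spread was the widest of the 5 in TSPAN8-low and the narrowest in all ID4-EGFP+. It stood at 5.43, 3.97 and 4.92 FPKM in TSPAN8-high, at 0.153, 0.877 and 1.72 FPKM in TSPAN8-low, and at 2.43, 2.36 and 2.77 FPKM in all ID4-EGFP+. The groups did not overlap. Within TSPAN8-low the SD was 85.5% of the mean, and replicate 1 lay far below replicates 2 and 3. The mean of 4.77 ± 0.742 FPKM in TSPAN8-high was 5.21-fold that of TSPAN8-low, at 0.916 ± 0.783 FPKM, and 3.68-fold without TSPAN8-low replicate 1. All ID4-EGFP+ averaged 2.52 ± 0.219 FPKM. The ratio of the fractions was 35.5 for replicate number 1, 4.53 for number 2 and 2.86 for number 3. On the log2 scale the difference was 1.67 (SE 0.25), rank 12, and without TSPAN8-low replicate 1 that of Oit1 was 1.35.

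The PQ-loop gene Pqlc1 had the highest level of the 5. It stood at 23.3, 19.7 and 22.9 FPKM in TSPAN8-high, at 3.40, 7.01 and 9.47 FPKM in TSPAN8-low, and at 11.6, 9.94 and 11.9 FPKM in all ID4-EGFP+. The groups did not overlap in FPKM, though TSPAN8-low replicate 3 lay close under all ID4-EGFP+ replicate 2. With the authors' normalized values these libraries changed places, at 9.92 and 9.89. The mean was 22.0 ± 1.97 FPKM in TSPAN8-high, 6.62 ± 3.06 FPKM in TSPAN8-low and 11.1 ± 1.05 FPKM in all ID4-EGFP+. The ratio of the fractions was 3.32, and 2.67 without TSPAN8-low replicate 1. The log2 difference was 1.68 (SE 0.25), rank 11.

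The scaffold gene Ppfibp2 had the smallest ratio between the fractions of the 5. It stood at 8.07, 10.2 and 9.48 FPKM in TSPAN8-high, at 4.25, 3.38 and 3.52 FPKM in TSPAN8-low, and at 3.82, 4.53 and 4.53 FPKM in all ID4-EGFP+. TSPAN8-high was above every other library, and TSPAN8-low and all ID4-EGFP+ overlapped, with TSPAN8-low above all ID4-EGFP+ for replicate number 1. The mean was 9.25 ± 1.07 FPKM in TSPAN8-high, 3.72 ± 0.465 FPKM in TSPAN8-low and 4.29 ± 0.407 FPKM in all ID4-EGFP+. TSPAN8-high was 2.49-fold TSPAN8-low and 2.15-fold all ID4-EGFP+. The log2 difference between the fractions was 1.12 (SE 0.15), rank 85. Cyb5r2 overlaps exons of Ppfibp2 on the other strand and was at or under 0.195 FPKM in each of the 9 libraries.

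Between the fractions all 5 genes passed at an adjusted p under 0.05 and had no overlap, which is fixed by how they were chosen; 3.41% of all genes tested were higher by this test and 15.9% were higher with no overlap. Against all ID4-EGFP+, TSPAN8-high was higher with no overlap for all 5, as for 6.79% of genes. By limma 16 genes passed there (0.144%), 3 of them higher (0.0269%), and Ppfibp2 alone of the 5 was among these, a count from values that chose the genes and so no evidence about them. Without a filter on low values limma called 0 genes, with 1703 at an unadjusted p under 0.05, and with the replicate number as a block it called 344. Within replicate numbers, the order TSPAN8-high above all ID4-EGFP+ above TSPAN8-low held in all 3 for Plvap, Cbln2, Oit1 and Pqlc1, as for 5.81% of genes, and in 2 of 3 for Ppfibp2.

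**Figure D1:**
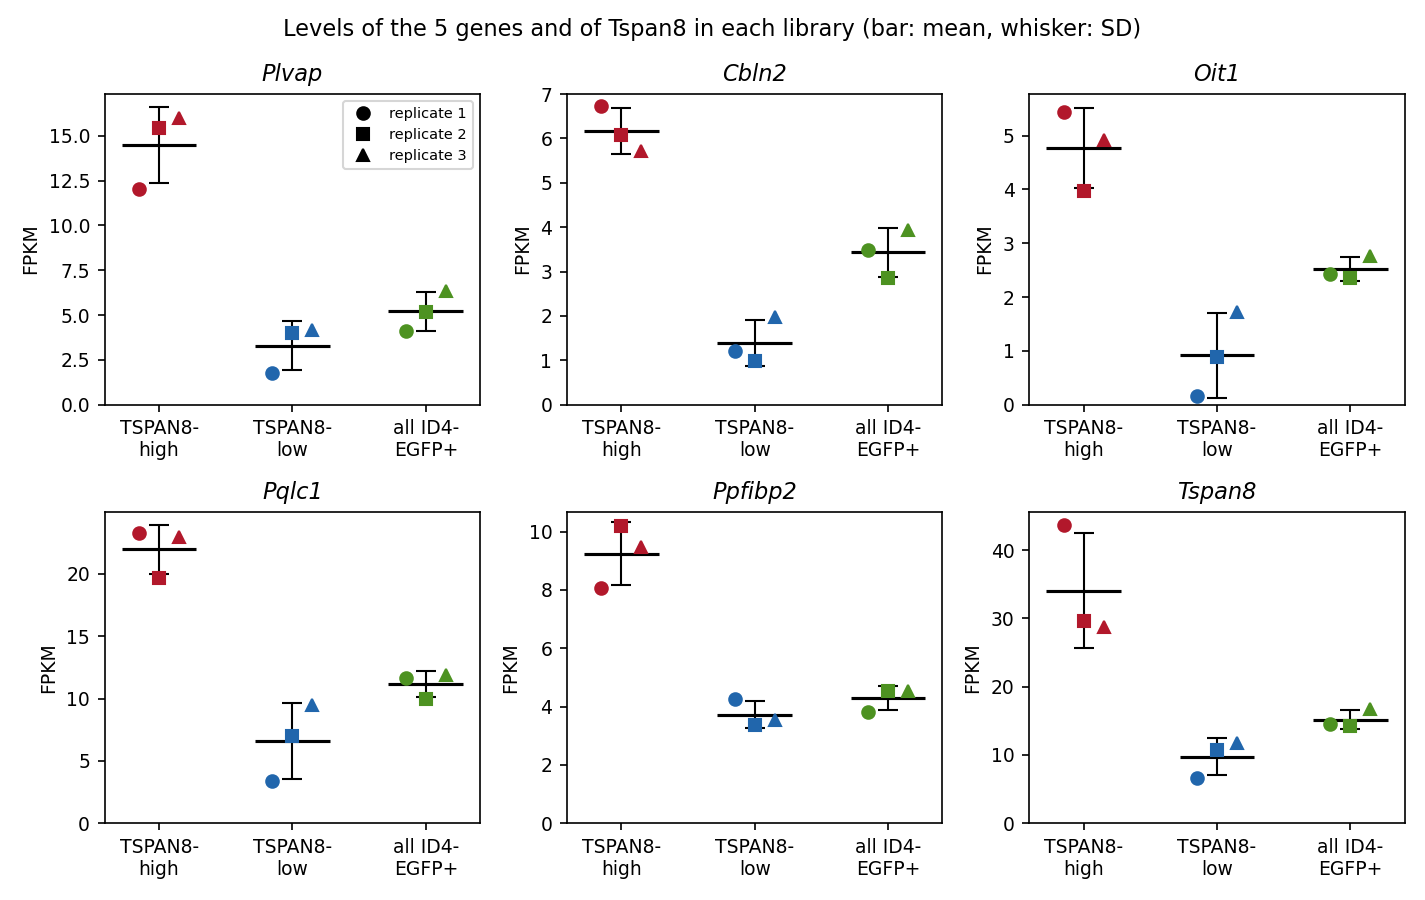
FPKM of each gene (vertical axes, linear, from 0) in TSPAN8-high, TSPAN8-low and all ID4-EGFP+, with a symbol for each replicate number, a bar at the mean and whiskers of 1 SD. All TSPAN8-high points lie above all other points of the same gene, and for Ppfibp2 and Plvap the TSPAN8-low and all ID4-EGFP+ points overlap.

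How the whole population related to the fractions was expressed as a position, the level in all ID4-EGFP+ minus that in TSPAN8-low, divided by the difference between TSPAN8-high and TSPAN8-low. It is 0 where the whole equals TSPAN8-low and 1 where it equals TSPAN8-high. Were the whole an even mix of 3 equal parts with the middle part between the fractions, it would lie between 0.333 and 0.667; whether the cells mix in that way was not tested. From the group means the position was 0.427 for Cbln2, 0.416 for Oit1, 0.294 for Pqlc1, 0.170 for Plvap and 0.105 for Ppfibp2. On this scale the whole population stood nearer to TSPAN8-low for all 5 genes, with the secreted protein genes between those bounds and Pqlc1, Plvap and Ppfibp2 under 0.333. Tspan8 had 0.224 and Id4 0.230.

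By replicate number the position averaged 0.437 ± 0.0836 for Cbln2, 0.414 ± 0.0771 for Oit1, 0.274 ± 0.124 for Pqlc1, 0.172 ± 0.0641 for Plvap and 0.0759 ± 0.161 for Ppfibp2 (SD, n = 3 numbers). The ranges of Cbln2 (0.367 to 0.529) and Plvap (0.104 to 0.231) did not overlap, while those of Cbln2 and Oit1 did. Pqlc1 ran from 0.177 to 0.414 and so overlapped Plvap and Oit1. Among the 380 genes called higher between the fractions the median position was 0.414, with 116 genes (30.5%) under 0.333 and 36 (9.47%) over 0.667. Plvap, Pqlc1 and Ppfibp2 were among the 30.5%. The position depends on the scale: on log2(FPKM + 1) it was 0.300 for Plvap, 0.564 for Cbln2, 0.577 for Oit1 and 0.451 for Pqlc1.

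**Figure D2:**
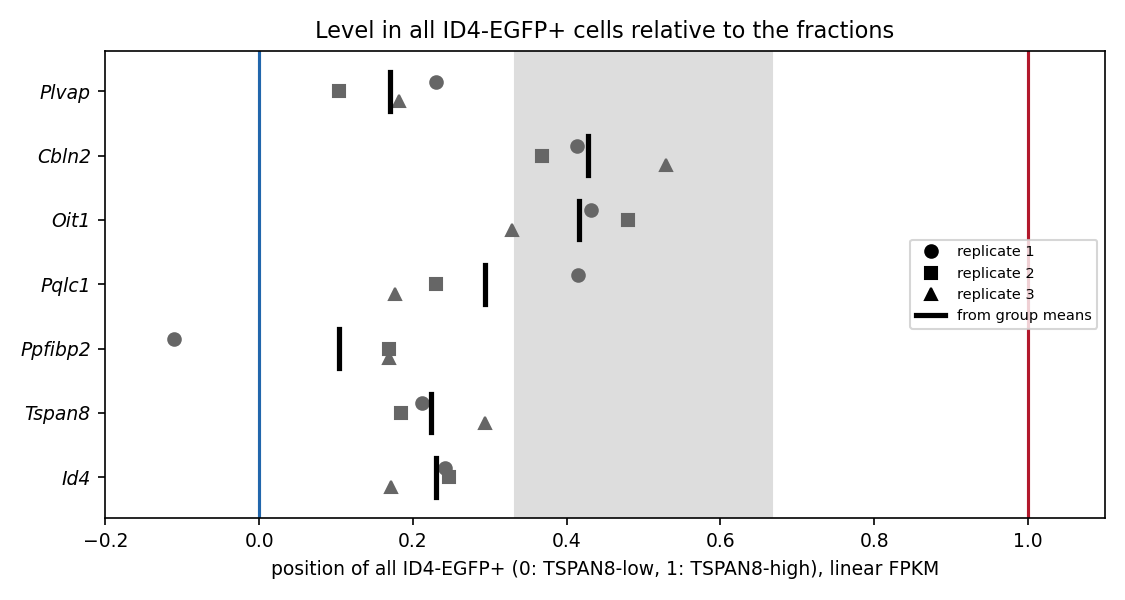
Position of all ID4-EGFP+ between TSPAN8-low (0, blue line) and TSPAN8-high (1, red line) on linear FPKM, for the 5 genes, Tspan8 and Id4. Symbols are the 3 replicate numbers, black bars are from the group means, and the grey band runs from 0.333 to 0.667; Cbln2 and Oit1 have their bars in the band and the other genes have theirs below it.

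In the comparison of TSPAN8-low with all ID4-EGFP+ the genes differed in size of change. Oit1 had a log2 difference of -0.96 (SE 0.25), Cbln2 -0.90 (SE 0.17), Pqlc1 -0.76 (SE 0.25), Plvap -0.57 (SE 0.24) and Ppfibp2 -0.17 (SE 0.15). TSPAN8-low was 0.363-fold all ID4-EGFP+ for Oit1 and 0.405-fold for Cbln2, but 0.865-fold for Ppfibp2. In order of fall among all genes tested, Oit1 ranked 15, Cbln2 17, Pqlc1 31, Plvap 148 and Ppfibp2 3444. This comparison shares its libraries with those that chose the genes, so no p is given for them. Over all genes limma called 0 of 11142 (0%), 910 had an unadjusted p under 0.05, and 5 passed with the replicate block. Oit1, Cbln2 and Pqlc1 lay below all ID4-EGFP+ with no overlap, as did 10.8% of all genes. A strict order with no overlap, TSPAN8-high above all ID4-EGFP+ above TSPAN8-low, held for these 3 genes and for 1.33% of all genes. With the authors' normalized values Pqlc1 had neither, since TSPAN8-low replicate 3 (9.92) was above all ID4-EGFP+ replicate 2 (9.89).

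How closely each gene followed Tspan8 was first described over the 9 libraries on log2(FPKM + 1). Pearson's r was 0.96 for Pqlc1, 0.95 for Oit1, 0.94 for Plvap, 0.93 for Cbln2 and 0.84 for Ppfibp2, and Spearman's rho was 0.98, 0.98, 0.88, 0.98 and 0.78 in the same order. Among the other 11141 genes, ranked by r, Pqlc1 was number 12, Oit1 31, Plvap 47, Cbln2 67 and Ppfibp2 340. The libraries were grouped by the TSPAN8 sort and the genes were chosen for their difference between groups, so these values have no p. Without the 2 libraries farthest from the median of Tspan8, which were replicate 1 of TSPAN8-high and of TSPAN8-low, r was between 0.92 (Cbln2) and 0.98 (Ppfibp2, Plvap and Pqlc1).

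Within groups the relation to Tspan8 took both signs. The deviations of Oit1 and Pqlc1 from their group means rose and fell with those of Tspan8 (r = 0.84, exact two-sided permutation p = 0.0139, and r = 0.80, exact permutation p = 0.0185, over 216 arrangements of the 9 libraries within groups). Cbln2 (r = 0.50, exact permutation p = 0.361) and Plvap (r = 0.49, exact permutation p = 0.375) did not reach the threshold. Ppfibp2 ran the other way (r = -0.75, exact permutation p = 0.0880) and did not reach the threshold either. Of all genes, 2.01% had a positive r with p under 0.05 by this test. The test exchanged libraries within a group whatever their replicate number, so its p-values are exact only if the numbers carry no pairing. That condition is in doubt. Over all genes, deviations had r of 0.265 to 0.481 between libraries of equal number and -0.456 to 0.277 between the other pairs. None of the 11141 genes passed once adjusted over all of them, where Oit1 had adjusted p = 0.884 and Pqlc1 0.921 by the permutation test, whose smallest possible p is 0.00463. Id4 had r = 0.78 (exact permutation p = 0.0602).

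The relation of Oit1 and Pqlc1 was weakest without TSPAN8-low replicate 1, where r was 0.59 for Oit1 (exact permutation p = 0.153) and 0.46 for Pqlc1 (exact permutation p = 0.250). Without TSPAN8-low replicate 2 or 3, r was 0.85 or 0.86 for Oit1 (exact permutation p = 0.153 each) and 0.79 or 0.76 for Pqlc1 (exact permutation p = 0.194 each). Leaving out a library leaves fewer than 216 arrangements, so the smallest possible p is higher. A larger p there does not by itself show a weaker relation. On linear FPKM r was 0.70 for Oit1 (exact permutation p = 0.130) and 0.53 for Pqlc1 (exact permutation p = 0.190). Oit1 also missed the threshold without all ID4-EGFP+ replicate 3 (exact permutation p = 0.0694), and Pqlc1 without TSPAN8-high replicate 1 (exact permutation p = 0.0556). Cbln2 reached it without TSPAN8-low replicate 1 (r = 0.54) or 2 (r = 0.85), at exact permutation p = 0.0139 each, the smallest p possible over those fewer arrangements. For Plvap the sign turned without TSPAN8-low replicate 1 (r = -0.35), and it turned on linear FPKM as well (r = -0.53). Plvap in TSPAN8-high was lowest in replicate 1, the library with the most Tspan8, and highest in replicate 3, which had the least. Ppfibp2 stayed between r = -0.91 and r = -0.59 without any 1 library. With the replicate number removed as well, r was 0.90 for Oit1 (replicate block, exact permutation p = 0.0185), 0.87 for Plvap (replicate block, exact permutation p = 0.0694), 0.85 for Pqlc1 (replicate block, exact permutation p = 0.0602), 0.56 for Cbln2 (replicate block, exact permutation p = 0.394) and -0.84 for Ppfibp2 (replicate block, exact permutation p = 0.125). Here too libraries were exchanged within groups before the number was removed, which does not keep the pairing.

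**Figure D3:**
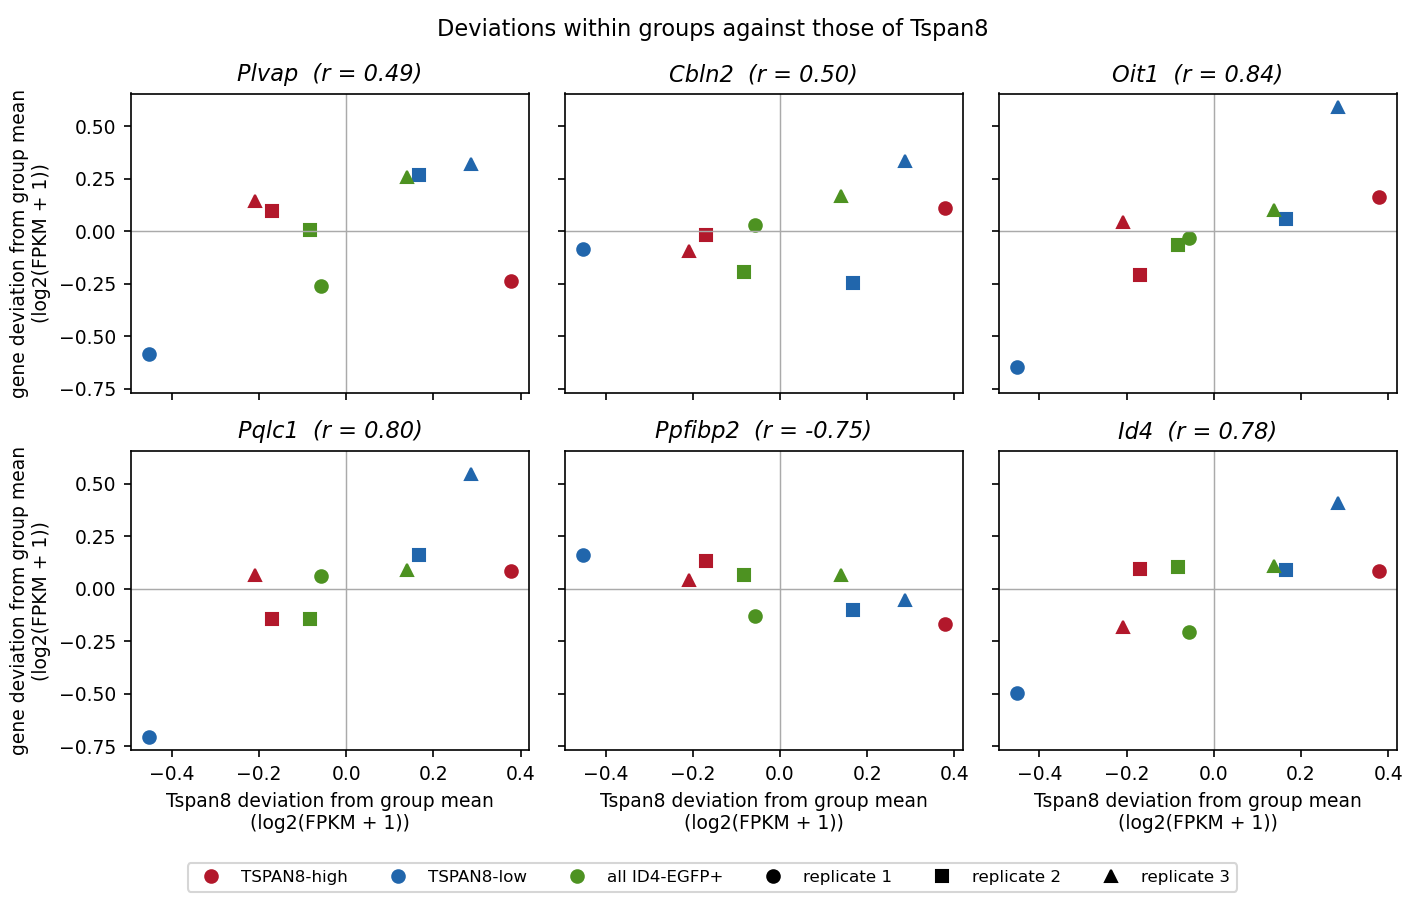
Deviation of each gene from its group mean (vertical) against that of Tspan8 (horizontal), both in log2(FPKM + 1), for the 9 libraries, coloured by group and with a symbol for each replicate number. Oit1 and Pqlc1 rise with Tspan8, with TSPAN8-low replicate 1 at the lower left, and Ppfibp2 falls from left to right.

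Among themselves the 5 genes fell into a close pair and an outsider. Over the 9 libraries the 10 pairs had r of 0.74 to 0.99, as the choice of genes fixes. Within groups Oit1 and Pqlc1 had r = 0.98, and each of them had 0.71 to 0.76 with Plvap and 0.52 to 0.59 with Cbln2. The r of 0.98 rests mostly on TSPAN8-low, where both genes spread most. Their log2 deviations in replicates 1 to 3 there were -0.65, 0.06 and 0.59 for Oit1 and -0.71, 0.16 and 0.55 for Pqlc1. Ppfibp2 had a negative r with all 4, from -0.64 with Pqlc1 to -0.10 with Plvap. These are descriptions of 9 libraries made with the same kit, and the labels do not say which litters went into each.

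The genes whose values over the 9 libraries were most like each member were taken by Pearson's r on log2(FPKM + 1). For Oit1 they were Dalrd3 (r = 0.99), Gfra1 (r = 0.99), which encodes the binding receptor of the niche factor GDNF, and Tgif1 (r = 0.99), which encodes a homeodomain repressor. Gfra1 averaged 18.2 FPKM in TSPAN8-high, 6.77 FPKM in TSPAN8-low and 11.1 FPKM in all ID4-EGFP+. For Pqlc1 they were Chn2 (r = 0.99), a Rac GTPase-activating protein gene, Fstl1 (r = 0.99), which encodes a secreted follistatin-like glycoprotein, and Sdcbp2 (r = 0.99), which encodes syntenin-2. For Plvap they were 1700020N15Rik (r = 0.99), Eif4e3 (r = 0.98), a cap-binding protein gene, and Mcam (r = 0.97), which encodes a surface adhesion molecule. Mcam averaged 55.9 FPKM in TSPAN8-high, 25.04 FPKM in TSPAN8-low and 35.7 FPKM in all ID4-EGFP+.

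For Cbln2 the closest genes were Pced1b (r = 0.99), Ica1 (r = 0.99) and Efcab4a (r = 0.99). For Ppfibp2 they were Ifngr1 (r = 0.97), a receptor chain for interferon gamma, Mme (r = 0.96), which encodes the surface peptidase neprilysin, and Zwilch (r = 0.96), a kinetochore protein gene. Mme averaged 1.52 FPKM in TSPAN8-high, 0.252 FPKM in TSPAN8-low and 0.488 FPKM in all ID4-EGFP+. At r of 0.95 or more Ppfibp2 had 6 genes beside it, Cbln2 28, Plvap 29, and Oit1 and Pqlc1 55 each.

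Plvap is a marker of blood vessel endothelium, so its values were set beside 18 other endothelial markers. Of these, 13 were under the filter. Vascular cadherin Cdh5 was at 0.0598 to 0.335 FPKM over the 9 libraries, Kdr, for a VEGF receptor, at 0.0603 to 0.321 FPKM, Tie1 at 0 to 0.0691 FPKM and Pecam1 at 0.308 to 0.910 FPKM. Sox17 was listed at 0 in every library, and Esam did not exceed 0.0582 FPKM. Kdr averaged 0.291 FPKM in TSPAN8-high and 0.0918 FPKM in TSPAN8-low, and Eng, for a TGF-beta co-receptor, 0.445 FPKM in TSPAN8-high and 0.196 FPKM in TSPAN8-low. Pecam1, Tek and Vwf also had the higher mean in TSPAN8-high. Cdh5, Tie1, Emcn, Esam, Cldn5, Robo4 and Ecscr had the lower mean there, as with Cldn5 at 0.110 FPKM in TSPAN8-high and 0.189 FPKM in TSPAN8-low. Plvap stood at 12.03 to 16.0 FPKM in TSPAN8-high, above those genes and below Egfl7 and Ramp2, and the part of endothelial RNA in its values was not tested. The summed level of the 18 markers was 69.0 to 87.0 FPKM in TSPAN8-high, 57.8 to 85.7 FPKM in TSPAN8-low and 69.9 to 85.6 FPKM in all ID4-EGFP+, ranges that overlap.

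Most of that sum came from 2 genes that did not pass, Egfl7 (29.9 ± 3.45 FPKM in TSPAN8-high and 29.1 ± 2.89 FPKM in TSPAN8-low) and Ramp2 (33.8 ± 5.74 FPKM in TSPAN8-high and 32.7 ± 11.2 FPKM in TSPAN8-low; SD, n = 3 each). Of the 5 tested markers Sox18, a SOX transcription factor gene, rose (5.47 ± 0.761 FPKM in TSPAN8-high, 2.13 ± 0.677 FPKM in TSPAN8-low, log2 difference 1.06, limma adjusted p = 0.0278), and none fell. For Sox18 the limma adjusted p was 0.0566 to 0.0914 when any TSPAN8-high library, or replicate 1 or 2 of TSPAN8-low, was left out, 0.0973 without a filter, and up to 0.107 without a replicate number. Erg had -0.43 (limma adjusted p = 0.122, 0.0471 with the replicate block) and Flt1 0.39 (limma adjusted p = 0.161). The median over the 5 was 0.09, against 0.05 over all genes tested.

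Transcripts of the caveolins were low, and those of Pacsin2 were not. Of 10 genes of caveolae and their membrane-bending partners, 3 were tested and 0 passed by limma. Cav1, the main caveolin gene, averaged 0.0624 FPKM in TSPAN8-high, 0.117 FPKM in TSPAN8-low and 0.0694 FPKM in all ID4-EGFP+. Ptrf, for cavin-1, averaged 0.585 FPKM in TSPAN8-high, 0.381 FPKM in TSPAN8-low and 0.448 FPKM in all ID4-EGFP+. Pacsin2, a membrane-bending protein gene of wider use, stood at 21.1 ± 2.53 FPKM in TSPAN8-high and 15.9 ± 0.388 FPKM in TSPAN8-low (log2 difference 0.38, limma adjusted p = 0.147, 0.0384 with the replicate block). Prkcdbp had -0.46 (limma adjusted p = 0.185) and Pacsin3 0.23 (limma adjusted p = 0.592).

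Most relatives and partners of Cbln2 were under the filter on low values. Of 12 such genes, 2 were tested and 0 passed by limma. The C1q-like gene C1ql1 was the most abundant relative of Cbln2, at 8.12 ± 1.98 FPKM in TSPAN8-high, 15.6 ± 4.59 FPKM in TSPAN8-low and 12.9 ± 5.19 FPKM in all ID4-EGFP+. Its log2 difference between the fractions was -0.85 (limma adjusted p = 0.109), and with the replicate block it fell (limma adjusted p = 0.00114). Cbln1 had -0.14 (limma adjusted p = 0.645) at 1.24 FPKM in TSPAN8-high and 1.49 FPKM in TSPAN8-low.

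Of the relatives of Oit1, Fam3c and Fam3b stood above Oit1 in every group, and Fam3a stood below it in TSPAN8-high and all ID4-EGFP+. Fam3c stood at 29.3 ± 2.49 FPKM in TSPAN8-high, 19.9 ± 4.20 FPKM in TSPAN8-low and 24.0 ± 1.66 FPKM in all ID4-EGFP+ (log2 difference between the fractions 0.55, SE 0.16, limma adjusted p = 0.0688, 0.00940 with the replicate block). Fam3b stood at 23.4 ± 0.165 FPKM in TSPAN8-high and 24.2 ± 4.497 FPKM in TSPAN8-low (-0.03, limma adjusted p = 0.927), and Fam3a at 1.84 ± 0.579 FPKM in TSPAN8-high and 1.30 ± 0.274 FPKM in TSPAN8-low (0.29, limma adjusted p = 0.507). None of the 3 passed without the block.

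Of 20 genes of other PQ-loop proteins and of phospholipid flippases with their partners, 15 were tested and 0 passed by limma. Pqlc3 was the largest difference among them and ran against Pqlc1, at 4.72 ± 1.73 FPKM in TSPAN8-high and 10.3 ± 4.34 FPKM in TSPAN8-low (log2 difference -0.96, limma adjusted p = 0.110, 0.000716 with the replicate block). The flippase genes Atp9a (0.60, limma adjusted p = 0.109) and Atp9b (0.46, limma adjusted p = 0.106) passed with the replicate block, at limma adjusted p = 0.0106 and 0.0473. With the block 2 of the 15 rose and 2 fell, against 1313 and 818 of all 11142 genes. Of 14 liprins and liprin partners, 7 were tested and 0 passed, with or without the block. Ptprf, for a receptor phosphatase that binds liprins, had -0.30 (limma adjusted p = 0.300), Erc1 0.22 (limma adjusted p = 0.435) and Erc2 -0.14 (limma adjusted p = 0.624). Ppfibp1, the closest relative of Ppfibp2, stood at 10.0 ± 2.03 FPKM in TSPAN8-high and 9.15 ± 1.88 FPKM in TSPAN8-low. Over the 5 lists together 0 of 30 tested genes passed by limma, 8 had an unadjusted p under 0.05, and the median log2 difference was 0.11. Of all 11142 genes 619 passed, 2448 had an unadjusted p under 0.05, and the median was 0.05.

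Transcripts listed as markers of Sertoli cells, the somatic cells of the tubule, differed between libraries and moved in part with the 5 genes. Whether these transcripts came from Sertoli cells was not tested. The summed level of 14 Sertoli markers was 96.0, 106 and 239.7 FPKM in TSPAN8-high replicates 1 to 3, 13.3, 23.8 and 146.7 FPKM in TSPAN8-low and 21.6, 49.5 and 112 FPKM in all ID4-EGFP+. Within groups it had r of 0.77 with Plvap, 0.76 with Oit1, 0.69 with Pqlc1, 0.59 with Cbln2, 0.03 with Ppfibp2 and 0.43 with Tspan8. Of the 6 tested markers 0 passed by limma between the fractions and 6 rose with the replicate block, as did 1313 of all 11142 genes. Cst9 had 2.16 (limma adjusted p = 0.176), Clu 2.00 (limma adjusted p = 0.191) and Rhox8 1.12 (limma adjusted p = 0.0965). Cst12 had 1.81 (limma adjusted p = 0.201), Inha 1.61 (limma adjusted p = 0.313) and Aard 1.24 (limma adjusted p = 0.198). Sox9, which defines the cell type, did not exceed 0.197 FPKM and averaged 0.103 FPKM in TSPAN8-high and 0.0911 FPKM in TSPAN8-low. The other untested markers of the 14 also had the higher mean in TSPAN8-high. In TSPAN8-high and TSPAN8-low the means were 0.777 and 0.311 FPKM for Fshr, 0.381 and 0.0471 for Amh, and 0.388 and 0.165 for Gata4. They were 0.476 and 0.225 for Dhh, 0.979 and 0.425 for Amhr2, 0.314 and 0.235 for Wt1, and 0.201 and 0.182 for Cldn11. In these sorted bulk samples more cells of a type and more RNA per cell cannot be told apart, and the part of Sertoli RNA in the values of the 5 genes was not tested.

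Markers of other somatic cells were present at unequal levels. Of 11 leukocyte markers 2 were tested, and Fcer1g rose (33.4 ± 4.88 FPKM in TSPAN8-high, 15.5 ± 5.83 FPKM in TSPAN8-low, log2 difference 1.11, limma adjusted p = 0.0201). For Fcer1g the limma adjusted p was 0.0535 to 0.0747 when replicate 2 or 3 of TSPAN8-high, or replicate 2 of TSPAN8-low, was left out, 0.0710 without a filter, and up to 0.173 without a replicate number. Cd68 had 0.59 (limma adjusted p = 0.192, 0.0384 with the replicate block), while Ptprc was at or under 0.177 FPKM in each library. Macrophage genes under the filter, which were not tested, had higher means in TSPAN8-high and spread widely there. Tyrobp was at 0.264 to 7.04 FPKM in TSPAN8-high and averaged 0.274 FPKM in TSPAN8-low, Lyz2 was at 0 to 7.95 FPKM in TSPAN8-high and averaged 0.0403 FPKM in TSPAN8-low, and C1qb was at 0 to 6.28 FPKM in TSPAN8-high and listed at 0 in TSPAN8-low. C1qa (0 to 2.14 FPKM in TSPAN8-high) and Aif1 (0.0688 to 1.90 FPKM in TSPAN8-high) were also listed at 0 in TSPAN8-low. Over the list the sum was 42.2 to 77.8 FPKM in TSPAN8-high, 14.8 to 34.1 FPKM in TSPAN8-low and 27.2 to 29.5 FPKM in all ID4-EGFP+. Of 7 peritubular myoid markers 3 were tested and 0 passed, with Myl9 at 0.87 (limma adjusted p = 0.0518, 0.00232 with the replicate block, where it rose), Tagln at 0.42 (0.202) and Acta2 at 0.65 (0.446), and the sum was 18.1 to 31.7 FPKM in TSPAN8-high, 8.50 to 15.8 FPKM in TSPAN8-low and 12.3 to 17.2 FPKM in all ID4-EGFP+. None of the 6 Leydig markers reached the filter, and their sum was 0.375 to 1.44 FPKM in TSPAN8-high, 0.325 to 6.48 FPKM in TSPAN8-low and 0.202 to 0.514 FPKM in all ID4-EGFP+. The part of these cells in the values of the 5 genes was not tested. Of the spermatogonial markers Id4, Gfra1 and Nanos2 rose (log2 differences of 1.37, 1.35 and 1.20, limma adjusted p from 0.00551 to 0.00604), and 0 fell. With the replicate block 6 of the 12 rose and 1 fell, against 1313 and 818 of all 11142 genes. Without replicate number 2 none of Id4, Gfra1 and Nanos2 passed (limma adjusted p from 0.0913 to 0.101).

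**Figure D4:**
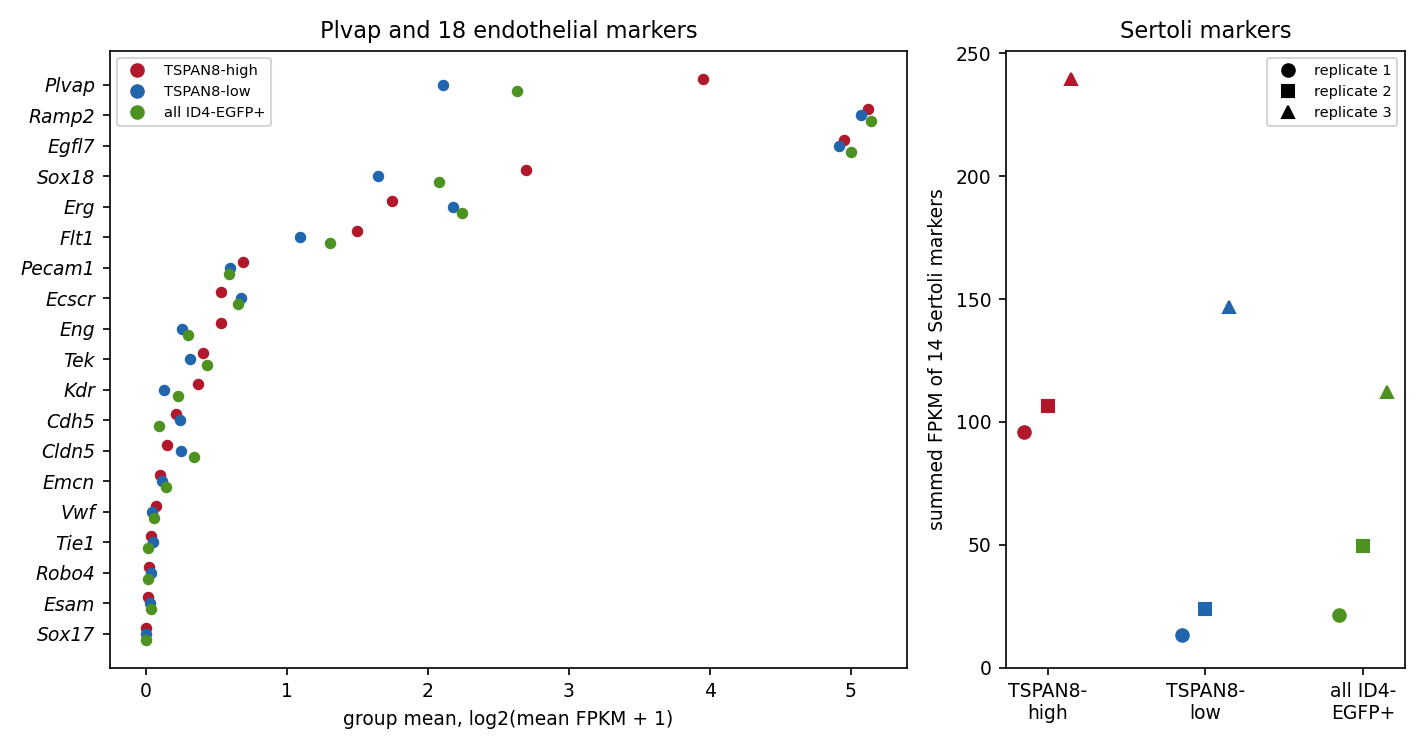
Left, log2 of the group mean FPKM + 1 of Plvap and of 18 endothelial markers, with a point per group. Right, summed FPKM of 14 Sertoli markers in each library, with a symbol per replicate number. Plvap is at the top with TSPAN8-high apart, while Cdh5, Kdr, Tie1, Esam and Sox17 lie near 0, and the Sertoli sum is highest in replicate 3 of each group.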

How the data were processed

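Gene expression was measured by RNA sequencing in 9 sorted cell samples. Per the labels' protocols the SMART-Seq v4 kit, which does not mark strand, gave the cDNA, and Nextera XT the libraries for paired-end reads. The authors deposited Cufflinks FPKM values per library, on which all main results rest. The submitters' processing notes name TopHat2 2.0.12, Bowtie2 2.2.3.0, Cufflinks, FastQC and the build mm9. The Cufflinks version and gene annotation were not stated in these sources. A deposited table of normalized signal, with its method not stated, served as an alternative, and its log10 copy was left out. Column names carry the group letters and replicate number of each sample.

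Of 23813 entries, 768 sharing 262 symbols were left out; 27 had date-like names. Genes with at least 1 FPKM in at least 3 libraries were kept. One limma 3.58.1 fit (R 4.3.3, two-sided p-values, Benjamini-Hochberg over 11142 genes) on log2(FPKM + 1) held the 3 groups. Within-group relations to Tspan8 were tested by exact permutation in Python 3.11.15, with p-values adjusted over all genes and not, as first planned, over the 5. The arrangements did not keep the replicate numbers together, so these p-values are exact only without pairing by number. Both tests were checked on simulated data that held no pairing by number, so the checks do not cover such pairing.

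Deviations from group means correlated between samples of equal number (r of 0.265 to 0.481 over 9 pairs, against -0.456 to 0.277 over 18 other pairs). A pairing by number is thus a pattern of the data only. The main fit and the main permutation test ignored it, and an alternative fit blocked on the numbers. The 5 genes, the lists and the motifs were chosen with earlier results of these data known. Named were the 5 genes, Tspan8, Id4, the 3 genes most like each by r, the smallest p-values of each list (3 genes) and all FAM3 genes; other list genes were named for their role after their values were seen. Other pseudocounts, no filter, 3 other scalings, the block, and leaving out libraries were tried. Values of some listed genes are not reported here.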

Additional observations from a re-analysis of the deposited data

How the results depend on the processing

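Between TSPAN8-high and TSPAN8-low, 619 genes passed; the count was 293 without a filter, 2131 with the replicate block, and 10 to 633 when 1 library or 1 replicate number was left out, lowest without replicate number 2. Between TSPAN8-high and all ID4-EGFP+, 16 passed; it was 0 without a filter, 7 with the authors' normalized values, 344 with the replicate block and 0 to 111 with samples left out. Between TSPAN8-low and all ID4-EGFP+, 0 passed, 5 with the replicate block and 0 to 1 with samples left out. Of the genes related to the 5 by function 0 passed, 7 with the replicate block and 0 to 1 with samples left out; of the cell type markers 5 passed, 18 with the replicate block and 0 to 10 with samples left out. The cause of these shifts was not tested.

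The log2 difference between the fractions kept its sign for each of the 5 genes in all 20 settings run, from 0.71 for Ppfibp2 with a pseudocount of 5 to 2.66 for Oit1 with one of 0.1. The genes were chosen for this difference, so the kept sign describes the choice and is no evidence about them. No filter, the replicate block and leaving out an all ID4-EGFP+ library cannot change the estimate. The position of all ID4-EGFP+ on log2(FPKM + 1) was 0.300 for Plvap, 0.564 for Cbln2, 0.577 for Oit1 and 0.451 for Pqlc1. On linear FPKM with 1 library left out, the position ran from 0.109 to 0.219 for Plvap and 0.373 to 0.488 for Cbln2. On that scale it ran from 0.352 to 0.471 for Oit1, 0.211 to 0.354 for Pqlc1 and 0.0763 to 0.147 for Ppfibp2. Within-group r with Tspan8 ran, with 1 library left out, from -0.35 to 0.95 for Plvap, 0.25 to 0.85 for Cbln2, 0.59 to 0.92 for Oit1, 0.46 to 0.94 for Pqlc1 and -0.91 to -0.59 for Ppfibp2. With 3 libraries a group and depth unknown, levels under 1 FPKM, such as Oit1 in TSPAN8-low replicate 1, carry few fragments.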

Other observations

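The gene whose values over the 9 libraries were most like those of Tspan8 was Tnfsf4 (r = 0.99), which encodes OX40 ligand, a surface protein of the TNF family. It averaged 2.86 FPKM in TSPAN8-high, 0.417 FPKM in TSPAN8-low and 1.17 FPKM in all ID4-EGFP+. It was followed by Ociad1 (r = 0.98) and Cd93 (r = 0.98), which encodes a surface receptor of the C-type lectin family. Cd93 averaged 2.10 FPKM in TSPAN8-high, 0.956 FPKM in TSPAN8-low and 1.34 FPKM in all ID4-EGFP+. Like the 5 genes, these were found by their likeness to a gene whose protein was sorted, so their order over the groups is a description.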
